A study of Mus musculus with 72 samples.

Results

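Imprinted genes are expressed mainly from the chromosome inherited from 1 parent. Many are controlled by DNA methylation that was laid down in the germ line on 1 of the parental copies. The report follows 10 of them across the tissues of mice that lack Gnb5, the G protein β5 subunit: Plagl1, H19, Igf2, Dlk1, Meg3, Cdkn1c, Grb10, Peg3, Mest and Zdbf2. They are 10 of 53715 gene rows counted in every library. They were listed by name around Plagl1, which had been seen to be higher in Gnb5-/- ventricles, to ask whether the other imprinted genes moved with it. Plagl1 was thus chosen by its ventricular counts in Gnb5-/- and Gnb5+/+ mice, and its own values in that comparison are given without a test.

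Many imprinted genes act on growth before and soon after birth, and a number of them are known to be co-expressed, as a network in which Plagl1 is a member. Plagl1 (also called Zac1) is a zinc finger transcription factor expressed from the paternal copy. Igf2 is a paternally expressed growth factor, and H19 is the neighbouring, maternally expressed long non-coding RNA. Dlk1, a paternally expressed transmembrane protein of the Notch ligand family, and Meg3, a maternally expressed non-coding RNA, form another such pair. Cdkn1c, an inhibitor of the cell cycle, is expressed from the maternal copy. Grb10, an adaptor that restrains insulin and growth factor receptors, is maternally expressed in most tissues and paternally in neurons. Peg3 and Zdbf2 (zinc finger proteins) and Mest (a protein of the hydrolase fold) are paternally expressed. The libraries count both parental copies together, so imprinting itself was not measured.

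RNA was sequenced from 18 male mice on a C57BL/6J background, aged 18 weeks, 6 of each genotype. Wild-type mice are written Gnb5+/+, heterozygotes Gnb5+/- and knockouts Gnb5-/-. The mutant allele lacks exon 3 in every cell of the animal, and the labels name no other allele or treatment. Per the study's methods, litters that included Gnb5-/- pups received powdered wet food around weaning. Which mice came from such litters is not given in the labels. Heart libraries (atria, ventricles) covered the 3 genotypes, and brain libraries (cerebellum, hippocampus, cortex of the cerebrum) covered Gnb5+/+ and Gnb5-/- mice, with 6 libraries in each of the 12 groups and 72 in all.

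Between 29204390 and 48807435 reads per library were counted on genes, with a median of 38864900. Counts of Gnb5 itself followed the labels without overlap between genotypes: 26.96 to 37.0 CPM (read counts scaled to the library's size) in Gnb5+/+, 13.4 to 21.3 in Gnb5+/- and 0.858 to 2.93 in Gnb5-/- heart libraries, and 71.4 to 113 against 8.87 to 16.1 in the brain. Marker genes of heart muscle and of the atrium and ventricle followed the tissue labels, and no 2 replicates were alike within sampling noise. Levels below are CPM after TMM normalisation over all 72 libraries. Log2 fold changes come from edgeR's quasi-likelihood fit within each tissue, with the standard error (SE), and a gene is called when its p, adjusted by Benjamini and Hochberg's method across every gene of that fit, is below 0.05. In bulk tissue, fewer cells of a type and less RNA per cell cannot be told apart.

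Of the 72 libraries, 5 were set apart from the others of their tissue, all of them from Gnb5-/- or Gnb5+/- mice. The cerebellar library of Gnb5-/- mouse 12 had 8.02% of its uniquely aligned reads outside annotated genes, against 14.02 to 16.97% in the other 11, and a choroid plexus marker sum of 645 CPM against 18.4 to 25.7. The cortical libraries of Gnb5-/- mice 14 and 3 had 6.86% and 8.32% of reads outside genes, against 13.1 to 15.6%. The ventricular library of Gnb5+/- mouse 4 had 2.85%, against 4.41 to 5.71%. The hippocampal library of Gnb5-/- mouse 5 was set apart after its Dlk1 level, 0.739 CPM against 6.83 to 20.5, had been seen. It also had the lowest leptomeningeal marker sum, 36.9 CPM against 65.5 to 153, and the lowest fibroblast sum, 63.6 against 92.2 to 150, while its choroid plexus sum, 50.1, lay within the range of the others (26.7 to 1214). Plagl1, Meg3, Grb10, Peg3, Mest and Zdbf2 were also lowest there. Values without these libraries are given beside the brain results they moved, and leaving them out trims only the mutant groups. Gnb5+/+ libraries with marker sums far from their group were kept. In Gnb5+/+ hippocampus the highest ventricular sum was 51.5 CPM (next in that group 0.528). The highest choroid plexus sum there was 1214 (next 430).

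The members lie on 6 chromosomes of GRCm38, none of them on chromosome 9, which carries Gnb5. Plagl1 spans chr10:13060504-13131694 on the plus strand. H19 (chr7:142575529-142578143), Igf2 (chr7:142650766-142666816) and Cdkn1c (chr7:143458339-143461050) lie on the minus strand of one imprinted region of chromosome 7, and Peg3 (chr7:6703892-6730431) elsewhere on that chromosome. Dlk1 (chr12:109452823-109463336) and Meg3 (chr12:109541001-109571726) are neighbours. Grb10 is at chr11:11930508-12038683, Mest at chr6:30723547-30748465 and Zdbf2 at chr1:63273265-63314576. Exons of Igf2 overlap those of Gm49394 on the same strand over 62.8% of their length, where reads may be left uncounted as ambiguous, so the Igf2 level may be understated. Exons of Mest overlap Copg2 on the opposite strand over 23.1%, and those of Cdkn1c overlap Gm44732 over 30.7%. Whether counting used the strand is not given in the sources used here, so reads from these pairs cannot be assigned with certainty.

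Plagl1 protein is known to bind a GC-rich palindrome, searched here as the letters GGGGCCCC, which read the same on both strands. The sequences below are the 250 bases before 1 annotated start of each gene. They belong to Plagl1, the gene the set was built around, and Mest, which had the largest log2 fold change of the members tested in Gnb5-/- atria. Peg3 is added as the only member whose window holds those letters. For Plagl1 and Mest the start used lies inside the gene span given above, and Mest had 3 windows. The sequences are read 5′ to 3′ from RefSeq on GRCm38.p6, with the motif in capitals.
Plagl1, chr10:13090582-13090831, plus strand: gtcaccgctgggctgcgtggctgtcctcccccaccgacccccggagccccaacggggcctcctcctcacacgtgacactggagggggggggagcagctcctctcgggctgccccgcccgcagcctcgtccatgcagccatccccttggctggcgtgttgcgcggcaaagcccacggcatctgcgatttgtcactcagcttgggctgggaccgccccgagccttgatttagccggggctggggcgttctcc
Mest, chr6:30737800-30738049, plus strand: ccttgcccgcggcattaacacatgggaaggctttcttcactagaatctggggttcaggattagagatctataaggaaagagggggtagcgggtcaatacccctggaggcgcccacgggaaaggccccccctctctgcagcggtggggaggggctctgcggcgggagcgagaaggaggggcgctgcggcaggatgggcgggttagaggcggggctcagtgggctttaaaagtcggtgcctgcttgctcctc
Peg3, chr7:6730420-6730669, minus strand: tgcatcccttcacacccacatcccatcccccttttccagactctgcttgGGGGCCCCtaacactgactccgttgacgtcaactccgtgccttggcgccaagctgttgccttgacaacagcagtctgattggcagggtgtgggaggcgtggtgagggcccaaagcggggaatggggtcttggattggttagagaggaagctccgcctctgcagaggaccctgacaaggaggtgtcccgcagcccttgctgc
Windows from 250 bases before to 50 after a start were found for 8 of the 10 members, and 1 of their 16 windows, that of Peg3, held the motif. It was present in 354 of all 32851 windows, or 1.08%. A match describes letters only, not binding.

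In Gnb5+/+ mice each member had its own tissue pattern. Plagl1 was highest in the atria, where the 6 mice ranged from 41.9 to 68.6 CPM with a median of 53.5. It followed at 11.6 to 23.0 (median 15.3) in hippocampus, 13.8 to 16.5 (14.9) in cortex and 8.21 to 11.4 (10.1) in cerebellum. Ventricles were lowest, at 2.47 to 3.31 CPM (2.88), so the 2 compartments of the same hearts stood at the ends of the range. Atria and ventricles differed by 4.26 on the log2 scale (SE 0.16, 19.1-fold, edgeR adjusted p 1.76e-20). When each tissue was normalised alone, the ratio of the means was 26.7. Neighbours in the order all differed (edgeR adjusted p 7.97e-04 or lower) except hippocampus and cortex, at 0.14 (SE 0.13, adjusted p 0.435). Of the 19477 genes tested over Gnb5+/+ tissues, 51.6% differed between atria and ventricles.

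**Figure D1:**
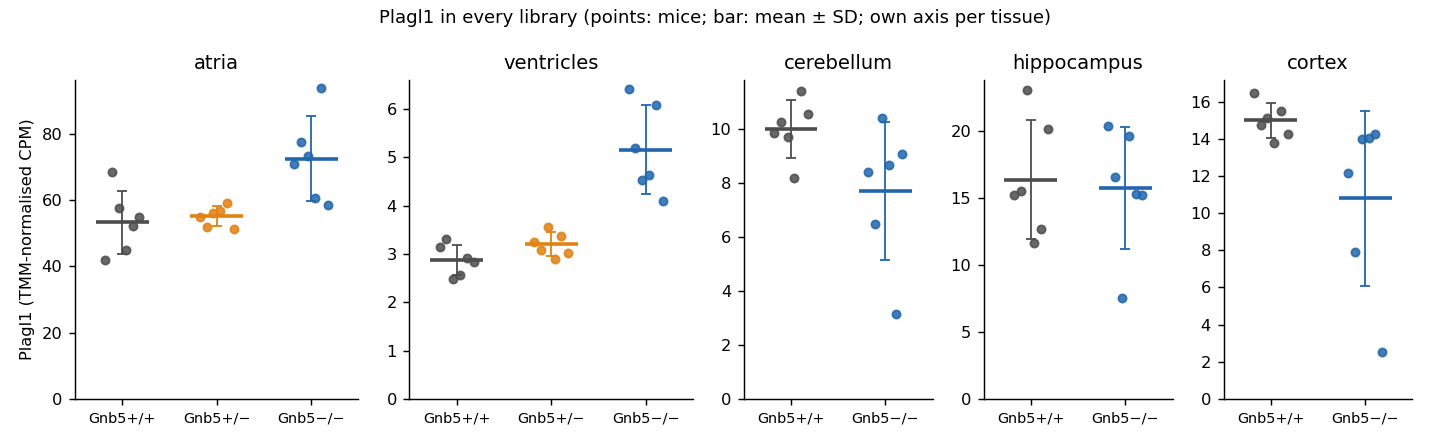
Plagl1 in each of the 72 libraries, in TMM-normalised CPM on linear axes that start at 0 and differ between tissues, by genotype, with the group mean and SD. Gnb5-/- ventricles (4.11 to 6.41) lie above all Gnb5+/+ (2.47 to 3.31) and Gnb5+/- (2.90 to 3.57) ventricles, and single low points appear in the Gnb5-/- brain groups.

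The paternally expressed members did not share the order of Plagl1. Igf2 was also highest in the atria (mean 5.41 CPM), and its 4 other tissues, at 0.352 to 0.644, could not be separated between neighbours (edgeR adjusted p 0.322 or higher); with each tissue normalised alone ventricles came last. Peg3 was highest in cerebellum (654) and fell through cortex (416), hippocampus (326) and atria (201) to ventricles (23.4), every step being called (edgeR adjusted p 5.23e-04 or lower). Mest was highest in cortex (20.5), followed by hippocampus (13.9), atria (11.2), ventricles (7.88) and cerebellum (4.54), again with every step called (edgeR adjusted p 0.0224 or lower), but with each tissue normalised alone ventricles (4.88) came below cerebellum (6.45). Zdbf2 was highest in cortex (31.3) and hippocampus (22.9), which did not differ (edgeR adjusted p 0.133), and lowest in ventricles (0.969). Dlk1 was a gene of hippocampus (10.6) and cortex (8.98, edgeR adjusted p 0.577 between them), with 0 to 5 reads per library in Gnb5+/+ heart.

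Among maternally expressed members, H19 was the most atrial, with a mean of 351 CPM in atria, 29.6 in ventricles and 1.25 in cerebellum. Hippocampus and cortex had 1 to 9 H19 reads per Gnb5+/+ library, and did not differ (edgeR adjusted p 0.713). Meg3 was the reverse, at 4651 CPM in cortex, 3616 in hippocampus and 2540 in cerebellum, against 35.5 in atria and 18.8 in ventricles, with every step called (edgeR adjusted p 0.00749 or lower). Cdkn1c was a heart gene, at 20.6 in ventricles and 16.9 in atria (edgeR adjusted p 0.331 between them), against 1.47 to 3.33 in brain, and with each tissue normalised alone atria (15.02) came above ventricles (12.7). Grb10 was highest in ventricles (133), followed by atria (72.5), cortex (41.4), cerebellum (33.4) and hippocampus (31.0), every step being called (edgeR adjusted p 0.0360 or lower). Over all members, 87 of the 100 pairs of Gnb5+/+ tissues were called, beside a large share of all genes: 86.3%, 86.4% and 87% of genes differed between atria and cerebellum, hippocampus and cortex, and 86.6%, 86.9% and 87.4% between ventricles and the same regions. Within the brain it was 68.3% between cerebellum and hippocampus, 69.1% between cerebellum and cortex and 33.5% between hippocampus and cortex. Per kilobase of exon, the member with the highest level was H19 in atria (142 CPM per kb), Grb10 in ventricles (14.6) and Meg3 in cerebellum, hippocampus and cortex (140, 200 and 257). Plagl1 stood at 6.82 CPM per kb in atria and 0.368 in ventricles.

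**Figure D2:**
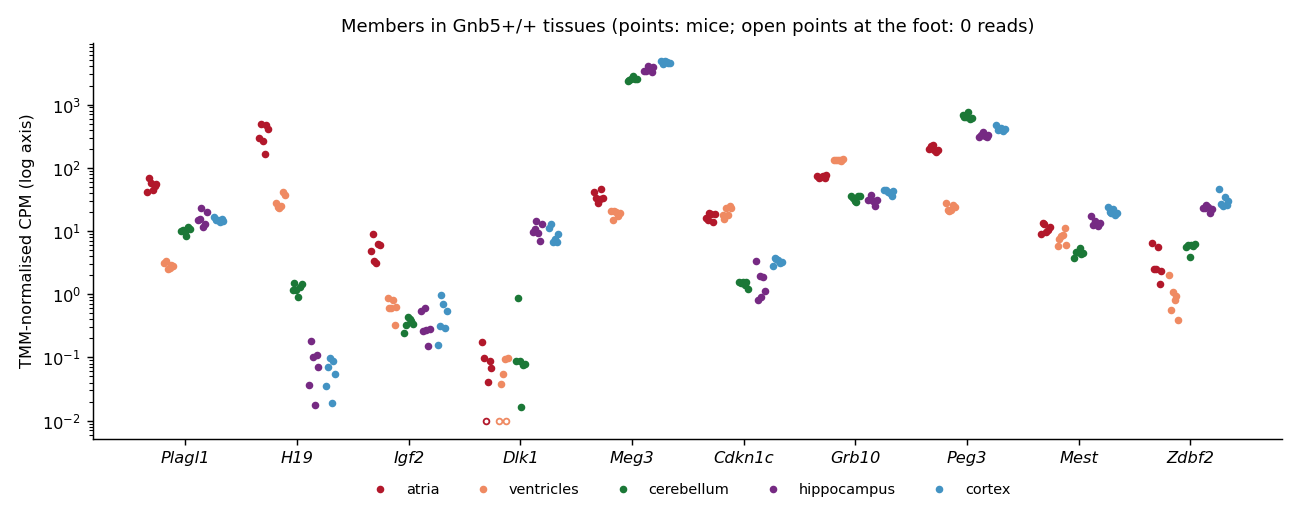
Levels of the 10 members in Gnb5+/+ mice, in TMM-normalised CPM on a log axis, by tissue, with 1 point per library and open points at the bottom for libraries without a read. H19 and Igf2 share the atrial peak of Plagl1, whereas Meg3, Peg3, Mest, Dlk1 and Zdbf2 are highest in a brain region, and Grb10 and, with this normalisation, Cdkn1c in ventricles.

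In the ventricles, where the level of Plagl1 was lowest, the genotypes were apart. Gnb5+/+ mice had 2.47 to 3.31 CPM (median 2.88), Gnb5+/- mice 2.90 to 3.57 (3.17) and Gnb5-/- mice 4.11 to 6.41 (4.92). Every Gnb5-/- ventricle lay above every Gnb5+/- and Gnb5+/+ ventricle, while those of Gnb5+/- and Gnb5+/+ overlapped. These levels rest on 45 to 87 reads per Gnb5+/+ and 92 to 149 reads per Gnb5-/- library. The log2 fold change was 0.83 (SE 0.14, 1.78-fold) in Gnb5-/- and 0.15 (SE 0.14) in Gnb5+/- mice, both against the same Gnb5+/+ libraries. No other member that passed the count filter was called, in a comparison where 0.188% of 14866 genes were called. The groups of every other member overlapped, while those of 0.538% of genes did not. Plagl1 is left out of both statements because this comparison chose it.

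In the atria, Plagl1 was higher in each Gnb5-/- mouse than the Gnb5+/+ mean, but the groups overlapped. Gnb5+/+ atria had 41.9 to 68.6 CPM (median 53.5), Gnb5+/- atria 51.3 to 59.3 (55.6) and Gnb5-/- atria 58.5 to 93.9 (72.2). Of the 6 Gnb5-/- atria, 4 were above the highest Gnb5+/+ atrium. The log2 fold change was 0.45 (SE 0.11, 1.36-fold) and was not called by edgeR (adjusted p 0.171), whereas DESeq2 called it (adjusted p 0.0417). Gnb5+/- atria were 0.05 higher (SE 0.11, edgeR adjusted p 0.947), with a 95% interval of −0.19 to 0.29. Both values use the same Gnb5+/+ atria.

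Mest had the largest log2 fold change of the 9 members tested in Gnb5-/- atria. Gnb5+/+ atria had 9.04 to 13.4 CPM (median 10.9), Gnb5+/- atria 12.2 to 14.6 (13.6) and Gnb5-/- atria 11.2 to 20.8 (16.2). All but 1 of the Gnb5-/- atria were above the highest Gnb5+/+ atrium, and the remaining one lay within the Gnb5+/+ range. The log2 fold change was 0.52 (SE 0.12, 1.43-fold), not called by edgeR (adjusted p 0.0972) and called by DESeq2 (adjusted p 0.0130). Without that lowest Gnb5-/- atrium, of mouse 5, it was 0.60 and called by edgeR (adjusted p 0.0186), a choice made after seeing the data. Gnb5+/- atria were 0.28 higher (SE 0.12, edgeR adjusted p 0.666), with all 6 mice above the Gnb5+/+ mean. In ventricles, Mest was 5.78 to 11.04 CPM (median 7.92) in Gnb5+/+, 6.95 to 9.20 (7.80) in Gnb5+/- and 8.57 to 13.9 (9.79) in Gnb5-/- mice. The Gnb5-/- ventricles were all above the Gnb5+/+ mean but overlapped that group, and the log2 fold change was 0.41 (SE 0.15).

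Over all members, edgeR called 0 of 9 in Gnb5-/- atria, where 0.253% of 16181 genes were called, and the groups of 0 members were free of overlap, against 0.612% of genes. At an unadjusted p below 0.05 there were 2, Plagl1 and Mest, against 8.15% of all genes, and DESeq2 called the same 2. The median log2 fold change of the members was −0.02, and that of all genes 0.00014. Peg3 overlapped between Gnb5+/+ (179 to 229 CPM, median 195) and Gnb5-/- atria (192 to 265, median 236), and 4 Gnb5-/- atria were above the Gnb5+/+ maximum. Its log2 fold change was 0.18 (SE 0.10, edgeR adjusted p 0.693).

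H19 and Igf2 had opposite signs in the 2 heart tissues. In atria, H19 was 166 to 488 CPM (median 356) in Gnb5+/+ and 213 to 388 (290) in Gnb5-/- mice, differing by −0.23 on the log2 scale (SE 0.22, edgeR adjusted p 0.867). In ventricles, it was 22.7 to 41.7 (26.1) and 23.7 to 51.5 (41.0), a difference of 0.42 (SE 0.18, edgeR adjusted p 0.943). Its 95% interval, not adjusted for the number of genes, was 0.04 to 0.81. The groups overlapped in both tissues. Igf2 was 3.07 to 8.94 CPM (5.46) in Gnb5+/+ and 2.70 to 7.03 (4.23) in Gnb5-/- atria, differing by −0.24 on the log2 scale (SE 0.24, edgeR adjusted p 0.875). Ventricular Igf2 rested on 6 to 40 reads per library in these 2 genotypes and differed by 0.48 (SE 0.38, 95% interval −0.31 to 1.27). The difference between the tissues was not tested, because the ventricular comparison had chosen the set.

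Cdkn1c, Grb10, Meg3 and Zdbf2 overlapped between Gnb5-/- and Gnb5+/+ mice in both heart tissues. Their atrial log2 fold changes ran from −0.04 to −0.0069 (edgeR adjusted p 0.948 or higher). Grb10, the most tightly measured, had a 95% interval of −0.15 to 0.09 in atria, while that of Zdbf2, −0.79 to 0.75, leaves room for a sizeable difference either way. In ventricles the values were 0.02 (SE 0.14) for Cdkn1c, −0.04 (SE 0.08) for Grb10, −0.09 (SE 0.10) for Meg3, −0.15 (SE 0.16) for Peg3 and −0.36 (SE 0.40, 95% interval −1.20 to 0.48) for Zdbf2. Dlk1 had 0 to 11 reads per heart library and did not pass the filter. A count of 0 allows up to 3 reads, for counting error only. A two-sided exact permutation test gave p 0.591 for Dlk1 between Gnb5-/- and Gnb5+/+ atria.

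**Figure D3:**
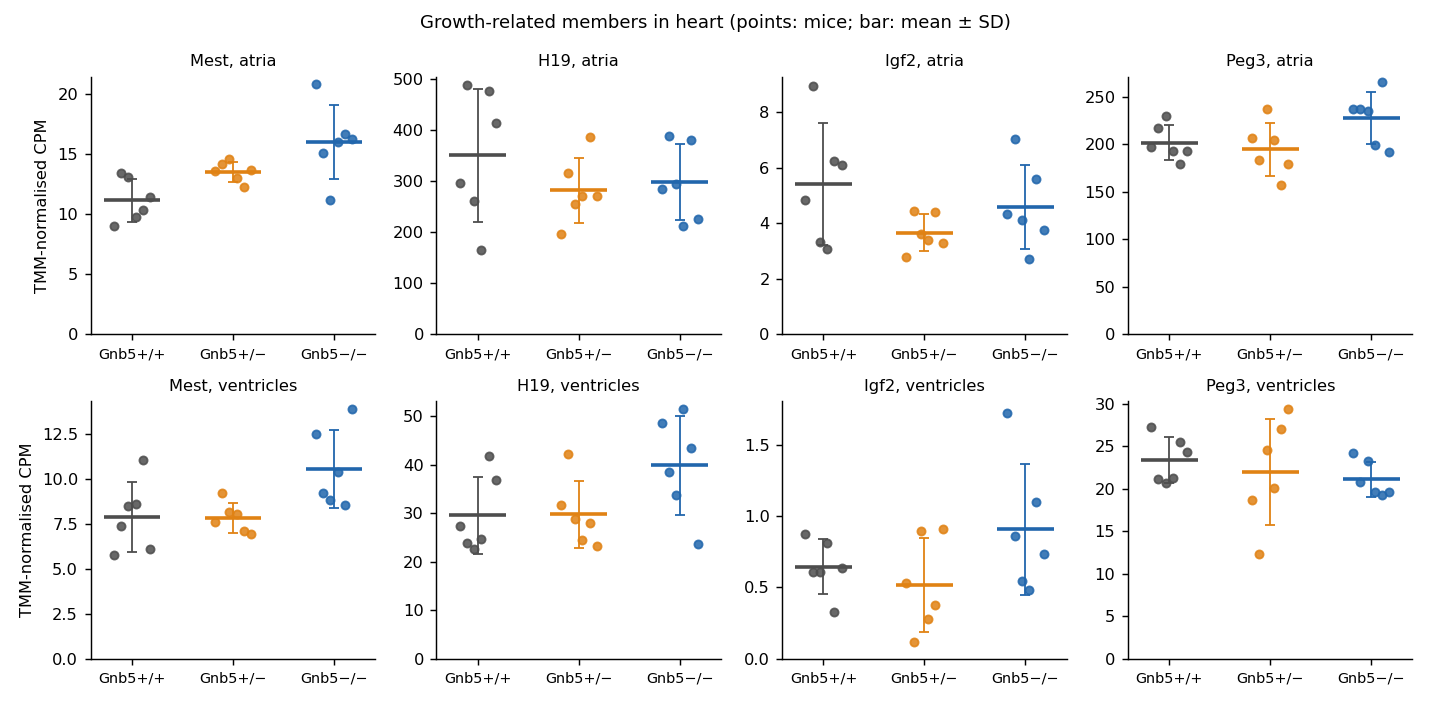
Mest, H19, Igf2 and Peg3 in each heart library, in TMM-normalised CPM on linear axes that start at 0 and differ between panels, by genotype, with the group mean and SD. Mest has its highest points in Gnb5-/- atria (up to 20.8 CPM), and the genotypes overlap for every gene shown, Mest included.

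Markers of other cell types were summed in the same libraries. The sum of 8 neuronal genes was 151 to 289 CPM in Gnb5-/- against 241 to 335 in Gnb5+/+ atria, and 27.2 to 43.7 against 36.9 to 59.1 in ventricles. Of these genes, Rbfox3 and Snap25 had 0 reads in all 6 Gnb5-/- ventricles, Syt1 in all 6 Gnb5+/- ventricles, and none in all 6 Gnb5+/+ ventricles. Reads of these single genes were not compared between genotypes. The sum of 8 fibroblast genes, none of which was at 0 in a heart group, was 2310 to 3091 against 2097 to 3028 in atria. In ventricles it was 1260 to 1456 against 1399 to 1774. The adipocyte sum was 6.09 to 345 against 6.34 to 31.6 in atria. Also in atria, the cardiomyocyte sum was 47394 to 59808 against 54812 to 59157. The sum of the microglia list was 179 to 219 against 152 to 190 there, and that of the thymus and lymphocyte list 7.07 to 16.1 against 6.44 to 8.55. An atrial list of 8 genes gave 262 to 483 in Gnb5-/- and 214 to 431 in Gnb5+/+ ventricles, against 27071 or more in atria. These lists overlap between genotypes, and their part in the Plagl1 and Mest values was not tested.

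In heterozygotes no member was called. In Gnb5+/- atria edgeR called 0 of 9 members (0.0124% of all genes) with 2 at an unadjusted p below 0.05, Igf2 and Mest, against 7.22% of all genes. DESeq2 called 0, and the groups overlapped for every member, against 0.198% of genes without overlap. Igf2 was 2.79 to 4.44 CPM (median 3.51) in Gnb5+/- against 3.07 to 8.94 (5.46) in Gnb5+/+ atria. All 6 heterozygotes were below the Gnb5+/+ mean, with a log2 fold change of −0.56 (SE 0.25, edgeR adjusted p 0.667). In Gnb5+/- ventricles 0 of 9 were called (0.0202% of all genes) and 0 had an unadjusted p below 0.05 (4.84% of all genes), with 0 called by DESeq2 and 0 free of overlap (0.168% of all genes). The library of Gnb5+/- mouse 4 was lowest for Grb10, at 96.3 CPM against 121 to 140 in all other ventricles, and for Meg3, at 14.5.

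**Figure D4:**
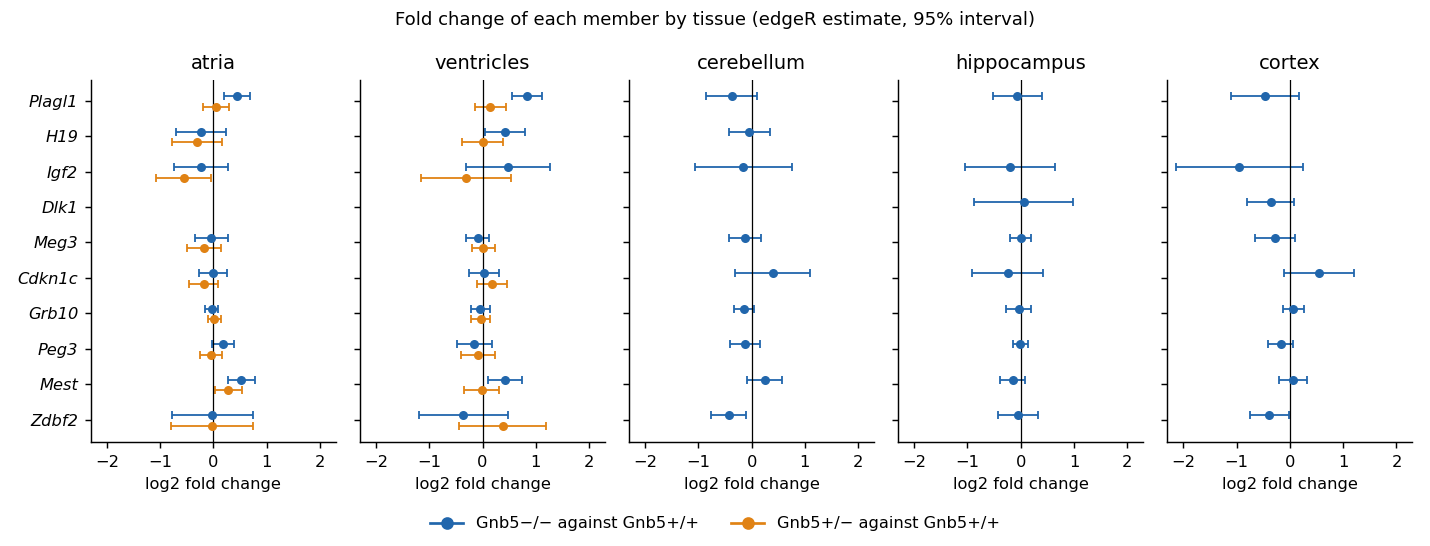
Log2 fold changes of the members that passed the filter, with 95% intervals, for each genotype comparison and tissue, from the edgeR fit within the tissue. The widest interval is that of Igf2 in cortex (−2.14 to 0.24), followed by Dlk1 in hippocampus (−0.87 to 0.98) and Igf2 in cerebellum (−1.07 to 0.76), and the narrowest is that of Grb10 in Gnb5-/- atria (−0.15 to 0.09).

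In the brain Plagl1 was not higher in Gnb5-/- mice. Cerebellum had 8.21 to 11.4 CPM (median 10.1) in Gnb5+/+ and 3.16 to 10.4 (8.55) in Gnb5-/- mice. Its log2 fold change was −0.38 (SE 0.22, edgeR adjusted p 0.583). The lowest value was that of mouse 12, without which it was −0.22. In hippocampus the ranges were 11.6 to 23.0 (15.3) and 7.50 to 20.3 (15.9), with a log2 fold change of −0.06 (SE 0.21, edgeR adjusted p 0.962). It was 0.08 without mouse 5. Cortex had 13.8 to 16.5 (14.9) and 2.55 to 14.2 (13.1), all 6 Gnb5-/- values being below the Gnb5+/+ mean, with a log2 fold change of −0.47 (SE 0.29, edgeR adjusted p 0.475). Without mouse 14 it was −0.27 and without mice 14 and 3 it was −0.14. The groups overlapped in all 3 regions.

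No member was called in any brain region. The counts were 0 of 9 in cerebellum, hippocampus and cortex, where 0.0817%, 0.165% and 0.0557% of all genes were called, and DESeq2 called 0 of 9 in each. At an unadjusted p below 0.05 there was 1 member in cerebellum (5.85% of all genes), 0 in hippocampus (7.7%) and 1 in cortex (7.39%), Zdbf2 in both cases. Groups overlapped for every member, while 1.1%, 0.648% and 0.601% of all genes did not overlap. Zdbf2 was 3.83 to 6.28 CPM (median 5.83) in Gnb5+/+ and 3.05 to 4.91 (4.23) in Gnb5-/- cerebellum. All 6 Gnb5-/- values were below the Gnb5+/+ mean, with a log2 fold change of −0.43 (SE 0.15, edgeR adjusted p 0.583). In cortex, Zdbf2 was 24.6 to 45.5 (28.7) against 17.9 to 29.3 (25.0), again with all 6 below the mean, and differed by −0.38 (SE 0.17, edgeR adjusted p 0.474). The lowest 2 values were those of mice 14 and 3, without which the difference was −0.24 (edgeR adjusted p 0.979). In cerebellum it was −0.36 (edgeR adjusted p 0.313) without mouse 12.

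Cdkn1c and Meg3 showed how far a few libraries set the brain values. In cortex, Cdkn1c was 2.77 to 3.75 CPM (median 3.30) in Gnb5+/+ and 2.88 to 9.63 (3.53) in Gnb5-/- mice, with mice 14 (9.63) and 3 (5.74) outside the Gnb5+/+ range. The log2 fold change was 0.55 (SE 0.30, edgeR adjusted p 0.474). It was 0.16 without mouse 14 and −0.04 without both mice. Cerebellar Cdkn1c was 1.22 to 1.57 (1.54) against 1.04 to 4.57 (1.51), the highest being mouse 12, and differed by 0.39 (SE 0.32, edgeR adjusted p 0.604), or −0.08 without that mouse. Meg3, the most abundant member per length in all 3 regions, was 4360 to 4943 CPM (median 4629) in Gnb5+/+ and 2177 to 4763 (4366) in Gnb5-/- cortex. Its log2 fold change of −0.28 (SE 0.17, edgeR adjusted p 0.474) became −0.04 without mice 14 and 3. These same libraries had low astrocyte marker sums, 1900 and 2634 CPM in the cortex of mice 14 and 3 against 3959 to 4735, and 1599 in the cerebellum of mouse 12 against 2336 to 2693. Their part was not tested beyond leaving the libraries out.

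**Figure D5:**
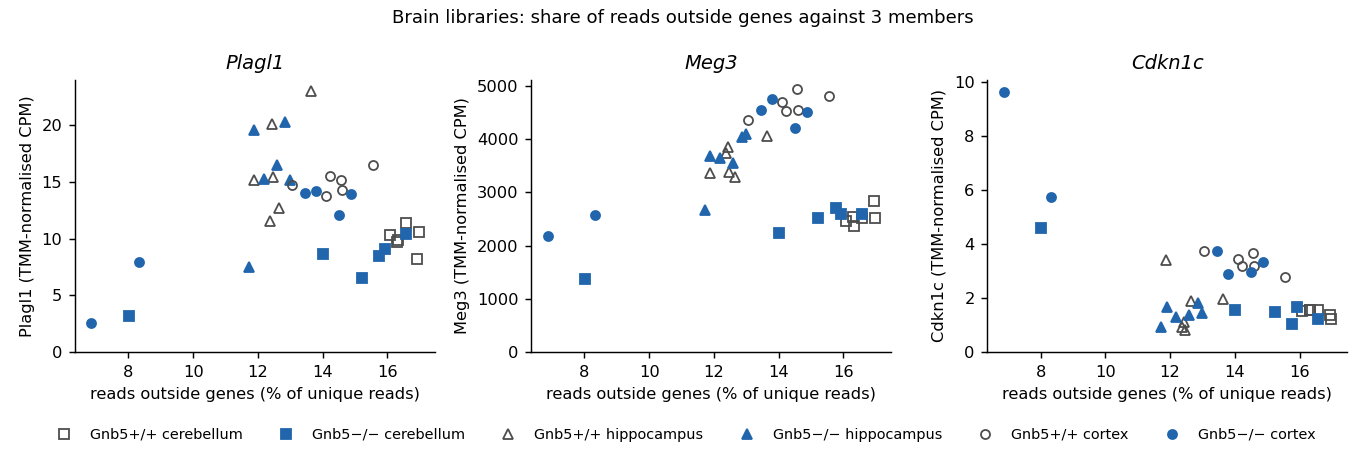
Plagl1, Meg3 and Cdkn1c (TMM-normalised CPM) in the 36 brain libraries against the percentage of uniquely aligned reads outside annotated genes. The cerebellar library of mouse 12 and the cortical libraries of mice 14 and 3, at 6.86% to 8.32%, hold the lowest Plagl1 and Meg3 of their regions and the highest Cdkn1c.

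The other members differed within their errors in brain. Igf2, at 0 to 50 reads per library, had a cortical log2 fold change of −0.95 (SE 0.55, edgeR adjusted p 0.474), which was −0.72 without mouse 14 and −0.55 without mice 14 and 3. Its cerebellar value was −0.15 (SE 0.42, edgeR adjusted p 0.861) and 0.09 without mouse 12. Cerebellar H19 differed by −0.04 (SE 0.18, edgeR adjusted p 0.916), and by −0.10 without mouse 12. Dlk1 was 6.83 to 14.2 CPM (median 10.2) in Gnb5+/+ and 0.739 to 20.5 (11.6) in Gnb5-/- hippocampus, differing by 0.05 (SE 0.43, edgeR adjusted p 0.986). Without mouse 5, which held the lowest value, the difference was 0.30 (edgeR adjusted p 0.844). In cortex it was 6.73 to 12.8 (8.24) against 4.51 to 9.38 (7.07), a difference of −0.36 (SE 0.20, edgeR adjusted p 0.474). Grb10, Peg3 and Mest lay between −0.17 and 0.24 on the log2 scale in the 3 regions (edgeR adjusted p 0.477 or higher). Cerebellar Peg3 went from −0.13 to −0.03 and Mest from 0.24 to 0.10 without mouse 12. In cortex Peg3 went from −0.17 to −0.04 and Mest from 0.06 to −0.08 without mice 14 and 3, and Grb10 from 0.07 to 0.02 without mouse 14. Cerebellar Meg3 was −0.12 (SE 0.14, edgeR adjusted p 0.689) with mouse 12 and −0.0049 without. In hippocampus, Mest went from −0.15 to −0.08 and Igf2 from −0.20 to −0.12 without mouse 5, Cdkn1c went from −0.25 to −0.15, while Meg3 (−0.0025 to 0.07), Grb10 (−0.04 to 0.03), Peg3 (−0.01 to 0.04) and Zdbf2 (−0.06 to 0.08) changed sign near 0. Genes that did not pass the filter were tested by a two-sided exact permutation test, which gave p 0.587 for cerebellar Dlk1, 0.379 for hippocampal H19 and 0.814 for cortical H19.

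Whether the knockout effect differed between atria and each brain region, or among brain regions, was tested as an interaction over 48 libraries. Of 60 tests, 0 were called by edgeR and 6 had an unadjusted p below 0.05, namely 2 for atria against cerebellum (8.79% of all genes), 1 against hippocampus (6.05%) and 3 against cortex (14.7%). Among brain regions there were 0, beside 3.27% of all genes for cerebellum against hippocampus, 2.42% for cerebellum against cortex and 7.92% for hippocampus against cortex. Of all genes, 0.143%, 0.0888% and 0.123% were called for atria against cerebellum, hippocampus and cortex. Among brain regions the shares were 0.0148% for cerebellum against hippocampus, 0.0197% for cerebellum against cortex and 0% for hippocampus against cortex. The lowest adjusted p was 0.204, for Mest between atria and hippocampus, with a difference of 0.68 (SE 0.19). Plagl1 had a difference of 0.93 (SE 0.34, edgeR adjusted p 0.278) between atria and cortex and 0.84 (SE 0.34, edgeR adjusted p 0.459) between atria and cerebellum. Between atria and hippocampus it was 0.52 (SE 0.34, edgeR unadjusted p 0.129, adjusted 0.99998). With the mouse as a block, since tissues of one mouse are not independent, 0 of 60 were called and the lowest edgeR adjusted p was 0.2005, again for Mest. Without the 4 brain libraries that stood apart, a choice made after seeing the data, 0 were called (lowest edgeR adjusted p 0.0806). Leaving them out with the mouse as a block gave 1 call, Mest between atria and hippocampus, at 0.65 (SE 0.15, edgeR adjusted p 0.0448). In that fit, Plagl1 differed by 0.67 (SE 0.18, edgeR adjusted p 0.120) between atria and cortex and by 0.66 (SE 0.18, edgeR adjusted p 0.0790) between atria and cerebellum.

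Beyond the members, 66 other imprinted genes were listed, of which 46 to 57 passed the filter depending on tissue. EdgeR called 0 of them in all 7 comparisons of genotypes. At an unadjusted p below 0.05 there were 4 of 52 in Gnb5-/- atria, 4 of 51 in cerebellum, 3 of 55 in hippocampus and 5 of 57 in cortex, with 2 of 52 in Gnb5+/- atria and 0 of 46 in Gnb5+/- ventricles. The shares over all genes were 8.15%, 5.85%, 7.7%, 7.39%, 7.22% and 4.84% in that order. DESeq2 called 1, Snrpn, a paternally expressed gene for a splicing protein, in Gnb5-/- atria, where edgeR gave −0.30 on the log2 scale (SE 0.07, adjusted p 0.155 by edgeR and 0.0378 by DESeq2). Their median log2 fold change in Gnb5-/- mice was 0.0065 in atria, −0.05 in ventricles, 0.01 in cerebellum, −0.0076 in hippocampus and −0.03 in cortex, beside 0.00014, −0.0059, 0.00041, 0.00018 and 0.0058 for all genes. In the ventricular comparison Peg12, a paternally expressed gene of the Prader-Willi region, was the 1 gene of the list without overlap, at 0.74 (SE 0.27), where 0.538% of all genes did not overlap.

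A list of 7 genes described as targets of Plagl1, Adcyap1r1, Cdkn1a, Slc2a4, Nppa, Apaf1, Pparg and Tcf4, held the PACAP receptor, a cell-cycle inhibitor, the insulin-responsive glucose transporter, the atrial natriuretic peptide and an apoptosis factor among others. All 7 were measured in heart and 6 in each brain region. EdgeR and DESeq2 called 0 in all 7 comparisons, and at an unadjusted p below 0.05 there was 1 in cerebellum, 1 in cortex and 0 in Gnb5-/- atria, Gnb5-/- hippocampus and both Gnb5+/- comparisons. Their median log2 fold change was 0.10 in Gnb5-/- atria and 0.02 in Gnb5-/- ventricles. Of 15 genes of the insulin-like growth factor axis (the hormone Igf1, receptors, binding proteins and substrates), 12 or 13 were tested, and both tools called 0 in all 7 comparisons, with 2 at an unadjusted p below 0.05 in Gnb5-/- atria, 2 in hippocampus, 1 in cortex, 0 in cerebellum, 1 in Gnb5+/- atria and 0 in Gnb5+/- ventricles. Igfbp4, a binding protein, did not overlap in hippocampus, like 0.648% of all genes, and was lower in Gnb5-/- mice, by −0.25 (SE 0.07, edgeR adjusted p 0.366). Igf1r, the receptor, did not overlap in ventricles, like 0.538% of all genes, at 0.21 (SE 0.15). For both lists, the same shares of all genes at an unadjusted p below 0.05 apply.

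Within a genotype, Plagl1 was compared with each other member over the mice of a tissue, on log2 CPM centred on the genotype mean. In the 40 relations tested, 12 had a Benjamini-Hochberg adjusted permutation p below 0.05 by Pearson's r and 1 of them also by Spearman's rho. That 1 was Dlk1 in hippocampus, with r 0.88 (permutation p 2.90e-04, adjusted 0.0116) and rho 0.85 (p 3.20e-04, adjusted 0.0128) over 12 mice, and r 0.82 without the 2 mice farthest from the median. After the 5 libraries that stood apart were left out, 0 of 40 passed, and Dlk1 in hippocampus had r 0.79 (permutation p 0.00211, adjusted 0.0844) and rho 0.82 (p 0.00465, adjusted 0.107). Mouse 5 had the lowest Plagl1 and Dlk1 together with the lowest leptomeningeal and fibroblast sums, whose part in the relation was not tested. The 3 atrial relations given next use the same libraries in both runs, with the same r and unadjusted p. Their adjusted p became 0.114 only because p-values of the other relations changed.

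In atria no library was set apart, but their ventricular marker sums varied widely. The sums were 125 to 1383 CPM in Gnb5+/+, 99.7 to 742 in Gnb5+/- and 194 to 509 in Gnb5-/- atria. Their part in the atrial relations was not tested. H19 in atria had r 0.64 (permutation p 0.0134, adjusted 0.0452) and rho 0.62 (p 0.0165, adjusted 0.0729) over 18 mice. Peg3 had r 0.56 (permutation p 0.0130, adjusted 0.0452) and rho 0.57 (p 0.0193, adjusted 0.0729). Grb10 went the other way in atria, with r −0.53 (permutation p 0.00622, adjusted 0.0355) and rho −0.60 (p 0.0107, adjusted 0.0729), but its sign was positive in hippocampus, with r 0.85 (permutation p 0.00126, adjusted 0.0252) and rho 0.77 (p 0.00532, adjusted 0.0709), and in cerebellum, with r 0.69 (permutation p 0.00431, adjusted 0.0324) and rho 0.63 (p 0.0259, adjusted 0.0796). Without the libraries that stood apart these were r 0.73 (permutation p 0.0143, adjusted 0.114) and r 0.64 (permutation p 0.0348, adjusted 0.199). Without the 2 farthest mice the atrial r was 0.54 for H19, 0.44 for Peg3 and −0.42 for Grb10, and all of them share a library's depth and composition with Plagl1. Mest, the member nearest to Plagl1 by its knockout difference in atria, had r 0.35 (permutation p 0.263, adjusted 0.364) and rho 0.37 (p 0.190, adjusted 0.281) there within genotype. In cerebellum Mest went the other way, with r −0.87 (permutation p 0.00435, adjusted 0.0324) and rho −0.55 (p 0.0758, adjusted 0.160). Without mouse 12 that r was −0.60 (permutation p 0.0871, adjusted 0.317). Its r was −0.80 in cortex, −0.24 in ventricles and 0.65 in hippocampus (adjusted permutation p 0.0798, 0.495 and 0.0935). In ventricles no relation passed the adjustment by either coefficient. In cortex, r of Cdkn1c was −0.96 (permutation p 0.00862, adjusted 0.0383) and rho −0.91 (p 0.00499, adjusted 0.0709), and mice 14 and 3 lay at the end of the range. Without these mice r was −0.24 (permutation p 0.534, adjusted 0.855) and rho −0.33 (p 0.395, adjusted 0.719). The remaining relations that passed by Pearson's r were positive. They were Meg3, Peg3 and Zdbf2 in hippocampus (r 0.81, 0.86 and 0.81, adjusted permutation p 0.0452, 0.0324 and 0.0383) and Meg3 in cortex (r 0.88, adjusted permutation p 0.0285).

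The genes with the pattern most like that of Plagl1 over the 12 group means were none of the members. Among 16861 genes with at least 1 CPM in a group, Aif1l, Ptpn13 and Plekha7 had the highest correlations of log2 CPM, at 0.985, 0.985 and 0.984. None of the 3 was called in any comparison of genotypes. Igf2 came nearest among members, at 0.72 and rank 432, followed by Peg3 (0.51) and Mest (0.45), and Grb10 was the lowest, at −0.25. These are descriptions over 12 groups that share mice and differ mainly by tissue.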

How the data were processed

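The deposited values were raw counts per gene for 72 libraries. The authors made stranded total RNA libraries (single-end reads), trimmed them with cutadapt 1.8, aligned them to GRCm38 with STAR 2.5.3a and counted uniquely aligned reads with HTSeq 0.9.1, per the labels and the study's methods. 5 summary rows per file were left out of library sizes and tests. Gene names came from GENCODE M21, which matched 53620 of 53715 rows.

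Counts were fitted within each tissue (18 libraries in heart, 12 in brain) by edgeR 4.0.16 (R 4.3.3) quasi-likelihood tests with TMM normalisation and filterByExpr (count minimum 10). Benjamini-Hochberg adjustment covered all genes tested, and SE is the log2 fold change over the square root of F. Tissues were compared over 30 Gnb5+/+ libraries and interactions over 48. DESeq2 1.42.0, size factors by the RLE method, no count filter, fits of 2 genotypes and the replicate number as a block were alternatives. The fits were tested on simulated data first. Permutation tests of correlations used 100000 resamples and exact tests all 924 splits, with 0.00216 as the smallest p.

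Members, lists and named genes were chosen with earlier results of these data known. By rule the named genes were all members, Gnb5, list genes called by edgeR (there were 0) and the 3 genes most like Plagl1. Snrpn, Peg12, Igf1r and Igfbp4 were named after their values were seen. Marker lists (21) were summed per library in CPM. The same mouse in 2 tissues had correlated deviations in 59 of 60 pairs (r 0.0964 to 0.522), so tissues of one mouse are not independent. A fit with the mouse as block changed no call between neighbouring tissues, and interactions were also fitted with it. Precision rests on 6 mice per group, and intervals cover the spread between these mice.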

Additional observations from a re-analysis of the deposited data

Results flagged for a closer look

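Of 120 sets of 6 libraries (10 members in 12 groups), 14 held a library far from the other 5 by Dixon's criterion, which chance reaches in about 1 set in 20. Of these, 10 were in 4 of the libraries already set apart. In the cerebellum of Gnb5-/- mouse 12, Igf2 was 0.0179 CPM (others 0.256 to 0.553), Meg3 1374 (2234 to 2716) and Cdkn1c 4.57 (1.04 to 1.65). In the cortex of Gnb5-/- mouse 14, Plagl1 was 2.55 (7.91 to 14.2), and Igf2 had a level of 0 (0.160 to 0.393), where up to 3 reads are allowed by a count of 0. In the hippocampus of Gnb5-/- mouse 5, Plagl1 was 7.50 (15.2 to 20.3), Dlk1 0.739 (9.45 to 20.5) and Meg3 2664 (3556 to 4092). In the ventricles of Gnb5+/- mouse 4, Meg3 was 14.5 (18.5 to 20.95) and Grb10 96.3 (132 to 140).

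The remaining 4 were in other libraries. Meg3 was 51.1 CPM in the atria of Gnb5-/- mouse 1, against 27.7 to 33.6 in the other Gnb5-/- atria. In Gnb5+/+ cerebellum, Dlk1 was 0.863 in mouse 8 (0.0165 to 0.0885), Meg3 was 2841 in mouse 16 (2376 to 2536) and Zdbf2 was 3.83 in mouse 15 (5.49 to 6.28).

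Plagl1 had log2 fold changes of opposite sign in 2 tissues of the Gnb5-/- mice. In ventricles, the comparison that chose the gene, it was 0.83, with all 6 mice above the Gnb5+/+ mean. In cortex it was −0.47 (SE 0.29, edgeR adjusted p 0.475), with all 6 below it. The lowest cortical values were those of mice 14 (2.55 CPM) and 3 (7.91), which stood apart, and the difference was smaller without them, as given above. The difference between the 2 tissues was not tested.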

How the results depend on the processing

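Of 450 values of single members under the alternatives, 411 kept their direction and side of the threshold, 3 became called (Plagl1 and Mest in Gnb5-/- atria by DESeq2, and Mest without mouse 5) and 36 changed sign. No paired structure came from the replicate numbers: 0 or 1 of 6 pairs of Gnb5-/- and Gnb5+/+ libraries with the same number had correlated deviations over 0.1, so they share only a number. Without the 4 brain libraries, the interactions gave 0 calls, and 1 with the replicate block (Mest). With the replicate block, 0 members were called in atria and 86 of 100 pairs of Gnb5+/+ tissues. It reversed Zdbf2 in Gnb5-/- (0.14) and Gnb5+/- atria (0.017), H19 (−0.0035) and Mest (0.0036) in Gnb5+/- ventricles and Dlk1 in hippocampus (−0.16), and it changed no other call of the members with all libraries. In Gnb5-/- atria DESeq2 called 2 members instead of 0. With 1 of the 12 atrial libraries left out, 0 to 1 members were called (1 without Gnb5-/- mouse 5), and log2 fold changes were −0.18 to 0.052 for Meg3, −0.069 to 0.043 for Cdkn1c and −0.19 to 0.25 for Zdbf2. Without a count filter Cdkn1c was 0.0023 in atria and H19 −0.010 in Gnb5+/- ventricles, where DESeq2 gave −0.0028. Without Gnb5+/- mouse 4 the ventricular values were H19 −0.11, Grb10 0.042 and Peg3 0.040. Without mouse 12 cerebellar Igf2 was 0.092 and Cdkn1c −0.079. Without mouse 5 hippocampal Plagl1 was 0.081, Meg3 0.070, Grb10 0.030, Peg3 0.041 and Zdbf2 0.083. Cortical Mest was −0.051 and Cdkn1c 0.16 without mouse 14, and −0.078 and −0.044 without mice 14 and 3. Relations with Plagl1 passing the adjustment went from 12 to 0 without the 5 libraries that stood apart. The 3 atrial ones rest on the same 18 libraries with the same r and unadjusted p, and their adjusted p became 0.114 only because the other relations' p-values changed. Over all genes, DESeq2 against edgeR called 113 against 41 in atria, 62 against 28 in ventricles, 63 against 14 in cerebellum, 110 against 29 in hippocampus, 35 against 10 in cortex, and 8 against 2 in Gnb5+/- atria. With each tissue normalised alone, 7 of 10 members kept their order of Gnb5+/+ tissues, all but Igf2, Mest and Cdkn1c. Depth limits H19 in hippocampus and cortex, Igf2, Dlk1 and ventricular Zdbf2, with at most 11 reads per library for that H19, at most 50 reads in any brain library for Igf2, at most 11 in any heart library for Dlk1 and at most 49 in any ventricle for Zdbf2.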

Other observations

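Atria and ventricles of the same 18 mice were compared within genotype, a choice made after seeing the data. Plagl1 in atria had r 0.51 (permutation p 0.0739, adjusted 0.591) and rho 0.37 (p 0.198, adjusted 0.521) with Plagl1 in ventricles, and r 0.28 without the 2 farthest mice. None of the 9 members compared passed the adjustment. Aif1l, the gene most like Plagl1 over group means, was 21.9 CPM (mean, range 15.1 to 25.8) in Gnb5+/+ and 31.9 (23.0 to 42.9) in Gnb5-/- atria, and 2.51 (1.81 to 3.15) and 2.80 (1.63 to 3.48) in ventricles.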
